A study of Mus musculus with 19 samples.

Results

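The hedgehog genes described here are the 9 core genes of the pathway, Shh, Ihh, Dhh, Ptch1, Hhip, Smo, Gli1, Gli2 and Gli3, measured in fibroblasts cultured from 7 organs of adult mice. They were found by joining each probe's RefSeq accession to its gene symbol, which gave 11 probes for 9 of the 20660 genes on the array, with a pair of probes each for Hhip and Smo. The mice were 8 to 10 weeks old, and the organs were skin, tail, lung, liver, heart, kidney and gonad. The labels used here give no genotype, strain, sex or drug treatment. Tissue pieces were digested with trypsin or collagenase and the cells that grew out were kept for 5 days in medium with 10% serum. Scanner files were used for 3 arrays each of gonad, heart, liver and tail and 2 each of kidney, lung and skin, which makes 18 arrays. Nothing in the labels ties the replicates to separate mice, and p-values here therefore cover only the spread between these samples, which may be technical.

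Hedgehog proteins are secreted signals made by 3 vertebrate genes, Shh, Ihh and Dhh. Without a ligand the receptor Ptch1 holds the membrane protein Smo inactive. When a ligand binds Ptch1, Smo moves into the primary cilium and the Gli transcription factors switch from repressing to activating their targets. Gli1, Ptch1 and Hhip are themselves widely used as readouts of that signal, and Hhip encodes a membrane protein that binds and sequesters the ligands. In many organs an epithelium or endothelium makes the ligand and the neighbouring fibroblasts respond.

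Signals are given as log2 of an array's processed intensity relative to that array's 75th percentile, so 0 is the 75th percentile and a difference of 1 is a doubling. Before any gene was compared, 5 arrays stood apart: gonad replicate 3, heart replicate 1, both kidney arrays and tail replicate 2 had dark control spots out of the scanner software's range. On these 5 arrays 84.8 to 96.5% of probes were called well above background and the median raw signal was 213 to 1985 units, against 50.1 to 76.9% and 63.0 to 130.5 units on the other 13. Comparisons were therefore made on 18 arrays and on the 13 arrays without raised dark controls, which hold no kidney array. Where neither a sentence nor the one before it names a set, a difference is from the 18. Fibroblast markers were well above background for at least 12 of 13 genes on every array. Their summed signal was 208.3 to 419.3 times the 75th percentile in kidney and 1630 to 2829 times in gonad, liver, lung, skin and tail, and it spanned 526 to 3017 times in heart. Kidney arrays also had the highest summed epithelial markers, 92.2 to 119.5 times the 75th percentile. Liver reached up to 81.8 and lung up to 86.5, both below the kidney range. In bulk RNA, fewer cells of a type and less RNA per cell cannot be told apart.

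Hhip and Dhh were the hedgehog genes with the clearest organ pattern. Hhip, the ligand-sequestering inhibitor, was high in skin and tail and low or undetected in most internal organs. Dhh, the ligand known from testis and endothelium, was high in gonad and liver and low in heart, skin and tail. Smo, which transduces the signal, had organ means within 5.07 to 5.37 once the arrays with raised dark controls were left out. By limma's F test over the 7 organs, 3 of the 9 genes passed at an adjusted p under 0.05, where 32.4% of all 20191 genes tested passed: Dhh (adjusted p = 0.00043), Hhip (adjusted p = 0.0011) and Smo (adjusted p = 0.012). On the 13 arrays 7 of the 8 genes tested passed, with Smo as the exception (adjusted p = 0.42), where 53% of all genes passed. Shh was not well above background on any of the 13 and was not tested there.

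**Figure D1:**
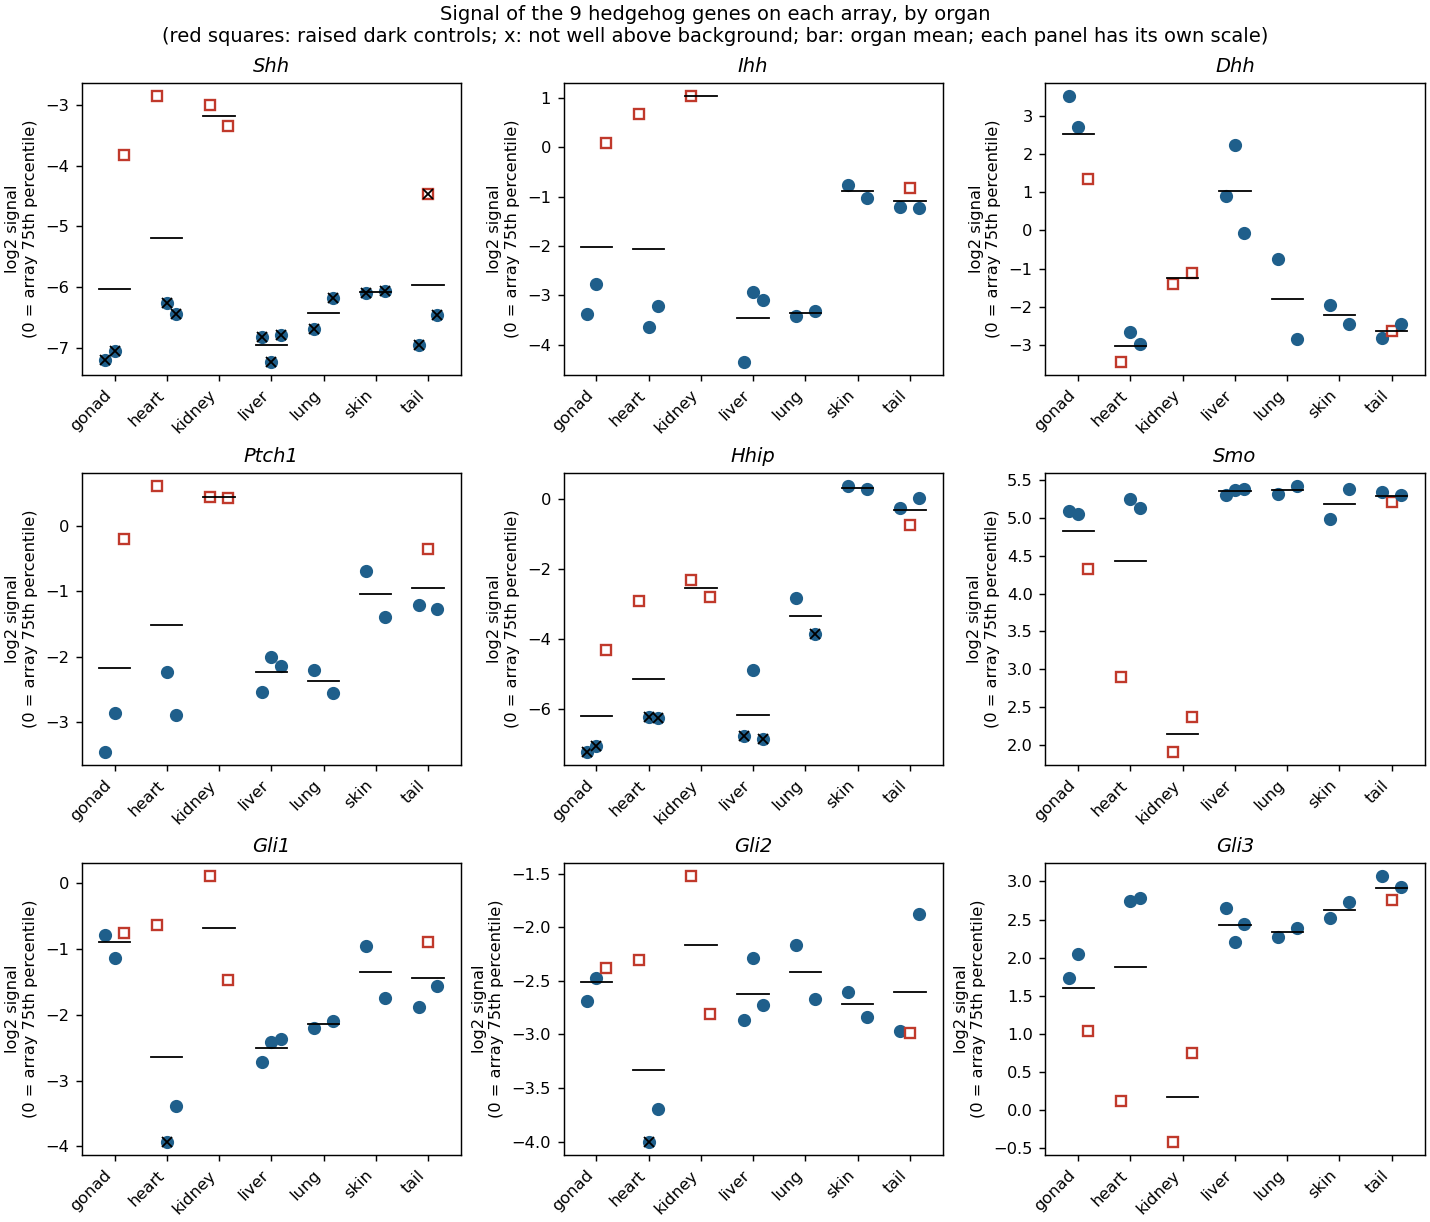
Log2 signal of each of the 9 genes (0 is the array's 75th percentile) on every array, by organ, with a bar at the organ mean; red squares are the 5 arrays with raised dark controls and a cross marks a probe not well above background. Hhip lay between -0.75 and 0.37 on all skin and tail arrays, Dhh was highest in gonad and liver, and on the red squares Shh, Ihh and Ptch1 sat high. Smo and Gli3 sat low on the red squares of gonad, heart and kidney. For both genes the red square of tail was the lowest tail array, but within the range of the arrays without raised dark controls. Each panel has its own scale and levels of different genes cannot be compared.

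Among the ligands, Dhh was well above background on all 18 arrays. Its gonad values were 3.5, 2.69 and 1.34. Its liver values were 0.90, 2.23 and -0.08, and its kidney values -1.39 and -1.12. It read -0.75 and -2.84 in lung, -1.95 and -2.45 in skin, -2.80, -2.62 and -2.45 in tail, and -3.43, -2.66 and -2.98 in heart. Every gonad and liver array was thus above every array of the other 5 organs, while gonad and liver overlapped. Dhh was 4.16 ± 0.51 (SE) log2 units higher in gonad than in the mean of the other organs (adjusted p = 0.00045), in a comparison in which 2.04% of all genes were called higher, a call being an adjusted p under 0.05 with a log2 difference of at least 1. Without the raised arrays the difference was 4.78 ± 0.61 (adjusted p = 0.00094; 4.7% of genes called higher). Within each of the 3 slides it was 4.90, 4.98 and 2.49. Leaving out any single array gave 3.67 to 4.74, and the call was kept each time.

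Dhh was also higher in liver than in the mean of the other organs, by 2.41 ± 0.51 (adjusted p = 0.030; 1.14% of genes called higher), and by 2.29 ± 0.52 on the 13 arrays (adjusted p = 0.029; 2.6%). The liver call on 18 arrays was lost on leaving out kidney replicate 1, liver replicate 1 or 2, skin replicate 2 or any tail replicate, where the difference was 1.81 to 2.47 and the adjusted p 0.050 to 0.25. Dhh was lower in heart by 2.30 (log2 -2.30 ± 0.51, adjusted p = 0.020; 2.33% of genes called lower) and in skin and tail together against the internal organs (log2 -1.91 ± 0.44, adjusted p = 0.021; 1.66%), where the 13 arrays gave -2.29 ± 0.48 (adjusted p = 0.0043; 3.95%). The heart call was lost without heart replicate 2 or 3 (log2 -2.48 to -2.32, adjusted p 0.068 to 0.096) and the skin and tail call without any 1 of the 5 skin and tail arrays (log2 -2.03 to -1.78, adjusted p 0.051 to 0.17). In tail alone the difference was -1.83 ± 0.51 (adjusted p = 0.0497; 2.16% called lower), and leaving out any of 13 single arrays lost that call (log2 -1.92 to -1.66, adjusted p 0.059 to 0.25), as did a slide block (-1.81, adjusted p = 0.057). Quantile normalization without background correction ended the calls in liver (2.72, adjusted p = 0.058), heart (-2.30, adjusted p = 0.074), tail (adjusted p = 0.085) and skin and tail (-1.90, adjusted p = 0.062). With normexp and quantile normalization of all 18 arrays the heart difference was -1.42 ± 0.39 (adjusted p = 0.039). In the order of organ means, gonad over liver did not pass (1.5 ± 0.66, adjusted p = 0.78), liver over kidney did (2.27 ± 0.74, adjusted p = 0.014; 42.4% of genes called lower in kidney than in liver), and none of the steps from kidney down through lung, skin and tail to heart did. Without kidney, on the 13 arrays, liver came next above lung and that step did not pass (2.81 ± 0.72, adjusted p = 0.14).

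Gonad and liver also had the highest summed endothelial markers. For 8 endothelial genes the sum was 11.6 to 30.4 times the 75th percentile in gonad and 15 to 34.6 times in liver, against 3.85 to 6.97 times in the other 5 organs. All 8 were well above background on every gonad and liver array, and 4 to 8 were so elsewhere. On the 13 arrays Pecam1, Tie1, Vwf and Erg had their highest mean in liver and Cdh5 and Emcn in gonad, although Vwf did not pass the F test (adjusted p = 0.060). Tek had its highest mean in tail, where Dhh was low (0.10, adjusted p = 0.0052), as did Kdr, which did not pass (1.91, adjusted p = 0.91). The genes most like Dhh over the 18 arrays, among 15422 genes compared, were Cdh5, the endothelial cadherin, with Pearson's r of 0.93, and Cd93, a receptor of endothelial and myeloid cells, with 0.92. Slc12a7, a potassium-chloride cotransporter, followed at 0.90 and Wipf3 at 0.89. These values describe arrays that share a scale and were 0.94, 0.94, 0.92 and 0.88 on the 13. For Cdh5, r was 0.39 over the 6 gonad and liver arrays and 0.79 over the other 12. Sertoli cells of the testis are a known source of Dhh. On the 13 arrays the sum of 7 of their markers was 3.90 to 6.49 in gonad, 1.42 to 3.38 in liver, lung, skin and tail, and 58.8 to 60.4 in heart, where Rhox5 and Sox9 had their highest means (5.59 and 3.45). Cldn11, a tight-junction gene, had its highest mean in gonad (1.19, adjusted p of the F test = 0.00083), and the defining genes Amh and Fshr were well above background on none of the 13. Of 7 Schwann cell genes 2, Foxd3 among them, were also well above background on none of the 13. The Schwann sum was 2.42 to 3.06 in gonad, 1.88 to 5.73 in liver and 3.12 to 6.05 in lung. In heart it was 1.47 to 1.56, in skin 1.04 to 1.19 and in tail 1.28 to 1.36. The part of endothelial, Sertoli and Schwann cells in the Dhh signal was not tested.

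**Figure D2:**
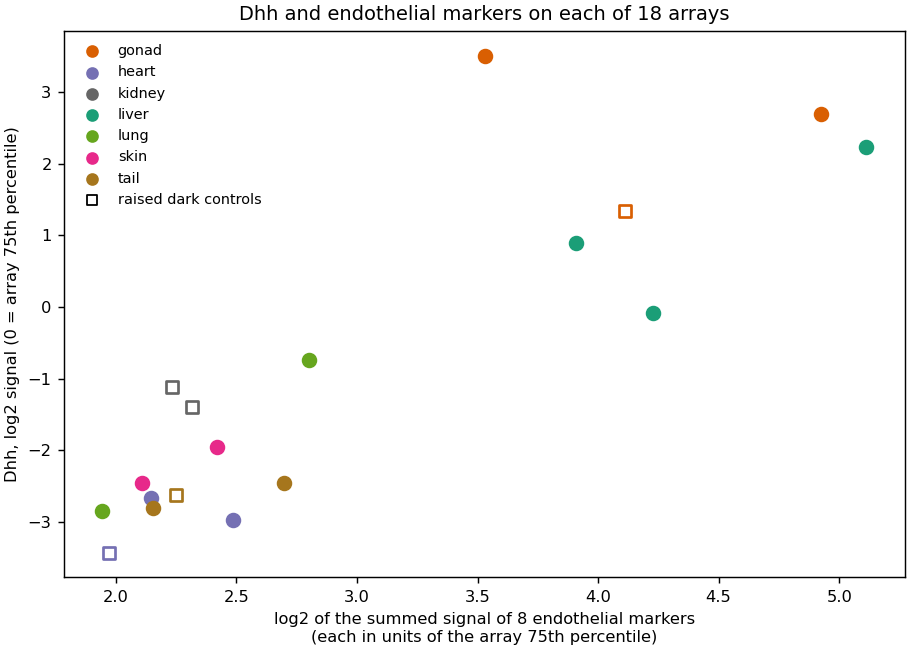
Dhh log2 signal (0 is the array's 75th percentile) against log2 of the summed signal of 8 endothelial markers on each of the 18 arrays, coloured by organ, with open squares for arrays with raised dark controls. The gonad and liver arrays lie apart from the rest on both axes, with Dhh from -0.08 to 3.5, while all arrays of the other 5 organs have Dhh of -0.75 or lower.

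The RefSeq promoter window of Dhh (GRCm38.p6, chr15:98898491-98898790, minus strand, 250 bases before to 50 after the start) is shown because Dhh and Hhip are the members that set organs apart. Capitals mark CCACCC or its reverse complement GGGTGG, the core of the GLI motif GACCACCCA.
Dhh: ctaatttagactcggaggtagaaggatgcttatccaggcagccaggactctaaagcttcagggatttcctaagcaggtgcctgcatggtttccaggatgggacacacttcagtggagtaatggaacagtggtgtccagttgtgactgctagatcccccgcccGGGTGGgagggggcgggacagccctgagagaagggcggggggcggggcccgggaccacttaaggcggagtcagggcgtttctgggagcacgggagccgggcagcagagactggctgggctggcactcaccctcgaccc
The match in Dhh begins 88 bases before the start. Promoter windows were matched for 7 of the 9 genes, and 6 of the 7, all but Ptch1, held the core on either strand, as did 31.5% of all 32851 windows. The full GACCACCCA motif was in none of the 7 and in 0.253% of all windows. A match describes letters in a window of 300 bases and is not a binding site.

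Ihh, the ligand best known from gut epithelium and growth-plate cartilage, was well above background on all 18 arrays and read highest on 3 of those with raised dark controls. On the 4 raised arrays with a usable spot it read 0.08 in gonad, 0.68 in heart, 1.03 in kidney and -0.82 in tail. On the other 13 it read -3.39 and -2.78 in gonad, -3.64 and -3.21 in heart, -4.34, -2.93 and -3.10 in liver, -3.42 and -3.31 in lung, -0.77 and -1.02 in skin and -1.21 and -1.22 in tail. Among these 13 the 4 skin and tail arrays were all above the 9 internal ones. The difference was 2.28 ± 0.26 (adjusted p = 0.00022), but 24.7% of all genes were called higher in skin and tail on the 13 arrays. The skin and tail arrays among them also had a higher median raw signal, 98.0 to 130.5 units against 63.0 to 87.0. With normexp background correction and quantile normalization of the same 13 arrays, where 2.9% of genes were called higher, Ihh was 0.87 ± 0.10 higher (adjusted p = 6.9e-05), which is under the minimum of 1. On all 18 arrays the difference did not pass (0.99 ± 0.71, adjusted p = 0.44). The difference between skin and tail on the 13 arrays did not pass (0.32 ± 0.43, adjusted p = 0.67), nor did any step from gonad down to liver.

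Epithelial and cartilage cells are known sources of Ihh, so their markers are given beside it. Of 9 epithelial genes, 7 were called higher and 1 lower in skin and tail on the 13 arrays, where 24.7% of all genes were called higher and 3.95% lower, and all 9 were well above background on each skin and tail array. Their sum was 17.5 to 19.6 in skin and 7.68 to 10.3 in tail, against 8.11 to 81.8 in liver, 30.5 to 86.5 in lung, 5.68 to 10.7 in gonad and 0.81 to 1.33 in heart. The sum of 7 chondrocyte genes was 159.1 to 217.4 in tail, 37.9 to 43.7 in heart and 4.80 to 5.69 in skin. Krt8 and Krt18 had their highest means on the 13 arrays in lung (3.16 and 5.20), Krt5 and Krt14 in skin (0.49 and 2.80), and Comp, a cartilage matrix gene, in tail (7.50). Comp alone makes up most of the tail sum. Of the 7 chondrocyte genes, 1 was well above background on none of the 13 arrays. The part of these cells in the Ihh signal was not tested. The genes most like Ihh were Dpf3, Rhbdl2, Kdm7a and Ntsr2, with r of 0.97 to 0.98 over 17 arrays and 0.94 to 0.96 over the 13.

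Shh, the ligand of limb, gut and hair follicle epithelium, was not detected outside the raised arrays. Its probe, spotted 10 times, was well above background on 4 of 18 arrays, namely gonad replicate 3 at -3.82, heart replicate 1 at -2.86 and kidney at -3.00 and -3.36. It read -4.46 on the raised tail array and -7.22 to -6.06 on the other 13, and was well above background on none of these.

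In kidney, where both arrays had raised dark controls, 35.1% of all genes were called higher and 41.4% lower than in the other organs. There 3 of the 9 hedgehog genes were called higher and 2 lower. Shh was at least 3.45-fold higher, since it was not well above background in liver, lung, skin and tail (adjusted p = 0.014), Ptch1 was 2.16 ± 0.79 higher (adjusted p = 0.025) and Ihh 3.18 ± 1.32 higher (adjusted p = 0.042). The Ihh value rests on kidney replicate 1 alone, since the spot of replicate 2 was flagged as an outlier. Gli3 was lower (log2 -2.13 ± 0.55, adjusted p = 0.0055), as was Smo (-2.94 ± 0.47, adjusted p = 0.0012). The single raised arrays of gonad and heart deviated from their group in the same direction for each of these 5 genes. Kidney and the raised dark controls cannot be told apart. With normexp and quantile normalization of all 18 arrays, Shh in kidney was 0.11 ± 0.11 higher (adjusted p = 0.42), while Smo was 0.76 ± 0.13 lower (log2 -0.76, adjusted p = 0.00056), under the minimum of 1. Ptch1 was then 2.22 ± 0.54 higher (adjusted p = 0.0038) and Ihh 3.83 ± 0.93 higher (adjusted p = 0.0042). Leaving out kidney replicate 1 lost the Gli3, Smo, Ptch1 and Shh calls, and leaving out replicate 2 lost those of Ptch1, Shh and Ihh. Those values were -1.55 for Gli3, -2.71 for Smo, 2.15 to 2.16 for Ptch1 and 2.74 to 3.10 for Shh. The Ihh call was lost on leaving out any of 9 single arrays (3.11 to 3.20, adjusted p 0.051 to 0.064) and with a slide block (2.78, adjusted p = 0.10).

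Of the 9 genes, Hhip had the largest difference between skin and tail and the internal organs on both sets of arrays. Its values were 0.37 and 0.29 in skin and -0.25, -0.75 and 0.05 in tail. On the internal arrays without raised dark controls it read -2.83 and -3.83 in lung, -6.74, -4.88 and -6.84 in liver, -6.21 and -6.25 in heart and -7.20 and -7.04 in gonad. On the raised arrays it read -2.29 and -2.78 in kidney, -2.91 in heart and -4.29 in gonad. No internal array reached any skin or tail array. The probe was well above background on all 5 skin and tail arrays and, of the 9 internal arrays without raised dark controls, on 1 liver and 1 lung array.

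Skin and tail exceeded the internal organs by 4.67 ± 0.60 (adjusted p = 0.00038), where 2.5% of all genes were called higher and 1.66% lower. The values within the 3 slides were 5.21, 4.93 and 4.48, and leaving out single arrays gave 4.56 to 4.89. Without the raised arrays Hhip was at least 27.9-fold higher (adjusted p = 1.7e-05; fitted difference 5.83 ± 0.36), the bound being set by gonad and heart, where it was not well above background. With normexp and quantile normalization the difference was 2.82 ± 0.19 on the 13 arrays (adjusted p = 2.8e-06) and 2.64 ± 0.20 on the 18. Hhip was 4.27 ± 0.85 higher in skin than in the other organs (adjusted p = 0.024; 0.733% of genes called higher) and 3.52 ± 0.71 higher in tail (adjusted p = 0.0079; 4.02%). The 13 arrays gave at least 17.2-fold in skin (20.8% of genes called higher) and at least 12.0-fold in tail (17.7%). Each of these calls on 18 arrays was lost on leaving out an array of its own organ: 4.23 to 4.31 with adjusted p 0.38 to 0.48 without skin replicate 1 or 2, and 3.34 to 3.48 with adjusted p 0.061 to 0.068 without tail replicate 1 or 3. The difference between skin and tail did not pass (0.65 ± 1.03 with an adjusted p of nearly 1, and 0.43 ± 0.59 on the 13 arrays, adjusted p = 0.68). There the step from tail to lung passed (3.23 ± 0.59, adjusted p = 0.0068; 11.1% of genes called lower in lung than in tail) and the step from lung to liver did not (2.83 ± 0.54, adjusted p = 0.068).

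Hhip was called lower in gonad (log2 -3.32 ± 0.71, adjusted p = 0.021; 0.807% of genes called lower) and in liver (-3.30 ± 0.71, adjusted p = 0.033; 0.545%). The gonad call was lost without gonad replicate 1 or 2 (-2.89 to -2.81, adjusted p 0.20 to 0.23), and the liver call without any of 10 single arrays (-3.94 to -2.96, adjusted p 0.050 to 0.19). In liver normexp and quantile normalization of 18 arrays gave -0.93 (adjusted p = 0.042), under the minimum of 1. The second Hhip probe lay between -3.77 and -3.17 on the 5 skin and tail arrays, between -7.20 and -5.59 on the 9 internal arrays without raised dark controls and between -3.31 and -2.32 on the 4 raised internal arrays, so that it separated skin and tail on the 13 arrays and not on all 18. It was well above background on all 5 skin and tail arrays and on none of the 9. Its correlation with the first probe was 0.80 over 18 arrays and 0.97 over 13. With the probes averaged, the skin and tail difference was 3.23 ± 0.63 (adjusted p = 0.0076), and the calls in skin, tail, gonad and liver alone were lost (adjusted p 0.15, 0.073, 0.15 and 0.077).

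The genes most like Hhip over 18 arrays were Rorb, a nuclear receptor (r = 0.93), Tbx15, a T-box factor of skin and skeletal mesenchyme (0.92), Nat8 (0.92) and Sned1, a matrix protein (0.90), with 0.96, 0.93, 0.92 and 0.89 on the 13. Rorb read 0.30 and 0.41 in skin and -0.51, -0.26 and -0.60 in tail, and Tbx15 was 1.25 to 2.12 on the same 5 arrays. Over the 13 internal arrays alone the r with Hhip was 0.87 for Rorb and 0.75 for Tbx15. Those 13 include 4 arrays with raised dark controls, on which dim genes read high together.
The Hhip promoter window (GRCm38.p6, chr8:80057959-80058258, minus strand) holds 1 match to the same core, beginning 158 bases before the start and in capitals.
Hhip: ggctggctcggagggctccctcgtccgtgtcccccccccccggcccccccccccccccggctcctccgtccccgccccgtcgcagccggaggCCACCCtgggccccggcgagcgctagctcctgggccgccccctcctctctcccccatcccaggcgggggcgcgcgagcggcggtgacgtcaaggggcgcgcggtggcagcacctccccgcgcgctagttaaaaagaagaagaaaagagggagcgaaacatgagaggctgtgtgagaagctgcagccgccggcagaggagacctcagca

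**Figure D3:**
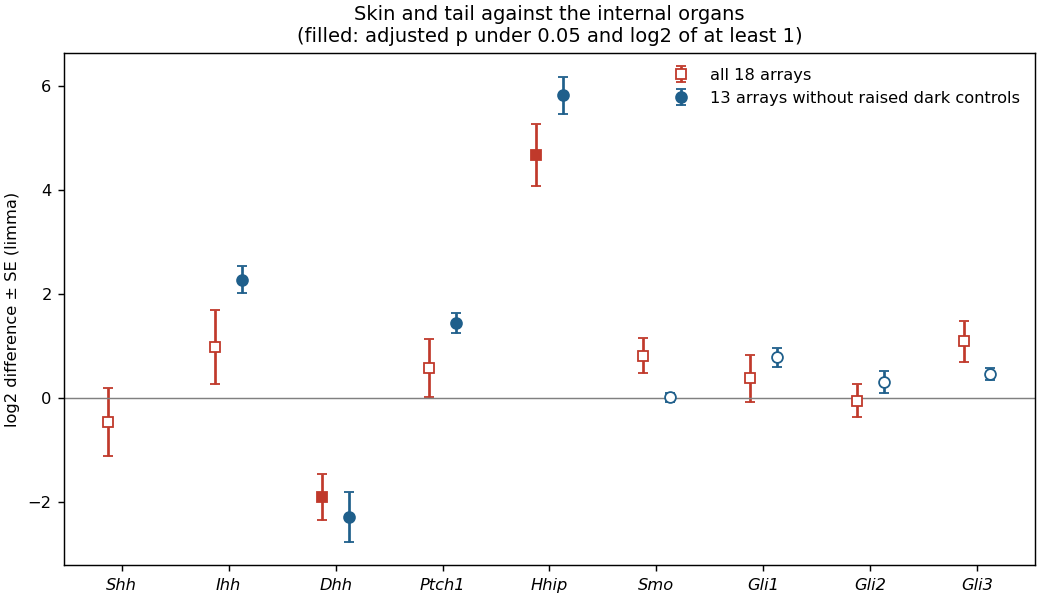
Log2 difference between skin and tail and the internal organs, with its standard error from limma, for each of the 9 genes on all 18 arrays (red squares) and on the 13 arrays without raised dark controls (blue circles); filled points were called. Hhip was called higher and Dhh lower on both sets, Ihh and Ptch1 reached the call on the 13 arrays, where 24.7% of all genes were called higher, and not on the 18, where 2.5% were, and Shh has no value on the 13.

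Ptch1, the ligand receptor and itself a target of the signal, was well above background on all 18 arrays. Outside the raised arrays it read -3.45 and -2.86 in gonad, -2.24 and -2.90 in heart, -2.54, -2.0 and -2.15 in liver, -2.20 and -2.55 in lung, -0.69 and -1.40 in skin and -1.21 and -1.28 in tail. On the raised arrays it was -0.35 to 0.61. The 4 skin and tail arrays of the 13 did not overlap the internal ones, and the difference was 1.44 ± 0.20 (adjusted p = 0.00057), again where 24.7% of genes were called higher. With normexp on the 13 it was 0.55 ± 0.10 (adjusted p = 0.0021), under the minimum of 1, and on all 18 arrays it did not pass (0.57 ± 0.57, adjusted p = 0.55). Ptch1 was lower in gonad on the 13 arrays (log2 -1.27 ± 0.26, adjusted p = 0.0066; 18.6% of genes called lower), and with normexp that difference was -0.36 ± 0.13 (adjusted p = 0.073). Its most similar genes, Rinl, Luzp2, Kcnk15 and Tcl1b3, had r of 0.99 over 18 arrays and 0.96 to 0.98 over 13. Over the 13 arrays Ptch1 correlated with Hhip at 0.88 and with Ihh at 0.82, and with Gli1 at 0.18, as a description of arrays that share their scale.

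Smo varied little outside the raised arrays. It read 5.00 to 5.42 on the 13 arrays and 1.91 to 5.22 on the 5. The organ means on the 13 ran from 5.07 ± 0.02 (SD, n = 2) in gonad to 5.37 ± 0.07 (SD, n = 2) in lung, with no step in the order past the threshold, and skin and tail differed from the internal organs by 0.01 ± 0.09 (adjusted p = 0.96). The F test of Smo thus passed on 18 arrays and not on the 13, which hold no kidney. The second Smo probe was well above background on all 18 arrays, and on the 13 its organ means ran from 0.60 in tail to 1.15 in liver. The probes correlated at 0.60 over 18 arrays and 0.14 over 13. The genes most like Smo over 18 arrays, Dctn1, Ptpra, Fth1 and Leng9, all had r of 0.99, which dropped to 0.41, 0.51, 0.55 and 0.85 on the 13.

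Of the Gli factors, Gli1, the activator that the signal itself induces, was highest in gonad and lowest in heart on the 13 arrays. It read -0.79 and -1.14 in gonad, -0.96 and -1.74 in skin, -1.89 and -1.56 in tail, -2.19 and -2.10 in lung, -2.72, -2.42 and -2.37 in liver and -3.93 and -3.39 in heart. The raised arrays read -0.75 in gonad, -0.63 in heart, 0.10 and -1.47 in kidney and -0.89 in tail, so that the heart and gonad values overlapped once these were included. Without them Gli1 was 1.31 ± 0.23 higher in gonad (adjusted p = 0.0033; 4.7% of genes called higher) and lower in heart (log2 -1.92 ± 0.23, adjusted p = 0.00064; 5.81% called lower). With normexp on the 13 arrays these differences were 0.86 ± 0.12 (adjusted p = 0.00081) and -0.83 ± 0.12 (adjusted p = 0.00089), each under the minimum of 1. The spot in heart replicate 2 was not well above background. In the order of organ means the step from liver down to heart passed (1.16 ± 0.27, adjusted p = 0.024; 4.92% of genes called lower in heart than in liver), and those from gonad through skin, tail and lung to liver did not. The genes most like Gli1 were Podnl1 (r = 0.91 on 18 arrays, 0.95 on 13), Runx3 (0.90 and 0.89), Cacna1h (0.90 and 0.85) and Tspan15 (0.89 and 0.83).

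Gonad thus had the highest mean Gli1 and Dhh on the 13 arrays and the lowest Ptch1, while Hhip was not well above background on its arrays there. Steroid-producing Leydig and theca cells are known hedgehog responders, and the summed signal of 6 of their markers was 14.4 to 22.0 in gonad against 1.90 to 3.58 in the other organs. Nr5a1, a transcription factor of steroid-producing cells, had a mean of 3.94 in gonad on the 13 arrays, its highest, and makes up most of that sum. Star and Cyp11a1 also had their highest mean in gonad (0.32 and -1.91). Hsd3b1 was highest in lung (-0.06, adjusted p of the F test = 0.00015), and Cyp17a1 did not pass (adjusted p = 0.96). Of the 6 markers, 1 was well above background on none of the 13 arrays. The part of these cells in the Gli1 signal was not tested.

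Gli2, the main activator at the start of the response, had the highest F-test p of the 9 on 18 arrays (adjusted p = 0.50) and passed on the 13 (adjusted p = 0.043). It read -4.00 and -3.70 in heart on the 13 arrays and -2.96 to -1.87 on the other 11, without overlap. The heart difference there was -1.30 ± 0.27 (adjusted p = 0.013), and with normexp -0.49 ± 0.13 (adjusted p = 0.022), under the minimum of 1. Gli2 was not well above background on heart replicate 2. The raised heart array read -2.31, among the other organs. Its most similar genes were Ptprk (r = 0.85), Cpa6 (0.83), Tdrkh (0.79) and Rab27a (0.78).

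Gli3, which mainly acts as the repressor in the absence of ligand, was well above background on all 18 arrays. Of the 13 arrays it read 1.73 and 2.05 in gonad, 2.21 to 2.65 in liver, 2.28 and 2.39 in lung, 2.52 and 2.73 in skin, 2.74 and 2.79 in heart and 3.07 and 2.93 in tail. Gonad was below every other array and tail above every one, and gonad against tail was the only pair called (log2 -1.11 ± 0.19, adjusted p = 0.0020; 25.1% of genes called lower in gonad than in tail). The raised arrays read -0.41 and 0.75 in kidney, 0.12 in heart, 1.05 in gonad and 2.75 in tail. Erlin1, Lhpp, St3gal2 and Trpm7 were most like Gli3, with r of 0.97 to 0.98 on 18 arrays and 0.78 to 0.92 on 13.

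Over the 21 organ pairs, 36 of 189 differences of the 9 genes were called on 18 arrays, where 17.2% of all differences were called. Of the 36, 23 involved kidney, 7 of the other 13 were of Dhh and 6 of Hhip. Among all genes, 2.46 to 42.4% were called in a given direction in a pair with kidney. In a pair without kidney the share was 0.0149 to 3.27%. Without kidney and the other raised arrays 46 of 120 were called, where 17% of all were called: 10 for Hhip, 8 each for Ihh and Gli1, 7 each for Dhh and Ptch1, 5 for Gli2, 1 for Gli3 and 0 for Smo. Both sets of differences share their organ means, so the counts are not independent of each other.

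The rest of the pathway was followed through 4 lists of 55 genes in all, given by how many passed the F test on 18 arrays (32.4% of all genes) and on 13 arrays (53%). Of 9 genes for making and releasing the ligand, 5 and 5 passed. Of 6 receptors and co-receptors that bind ligand with or beside Ptch1, 5 and 6 passed. Of 24 relays of the cilium and cytoplasm between Smo and Gli, 10 and 11 passed. Of 17 genes reported elsewhere as Gli targets, 12 and 16 passed. The median range between organ means on the 13 arrays was 0.71 for the relays, 1.80 for ligand handling, 2.78 for the targets and 3.21 for the receptors.

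Among ligand handling genes, Scube2, a secreted protein that carries lipid-modified hedgehog off the cell, was 1.23, 0.58 and 0.60 in tail, above all other arrays, which ranged from -4.73 to -0.36. Tail exceeded the other organs by 3.39 ± 0.32 (adjusted p = 2.6e-05), and by 3.19 ± 0.16 on the 13 arrays (adjusted p = 1.3e-05). Scube2 was also higher in gonad (1.80 ± 0.32, adjusted p = 0.0060). Gpc1, a glypican, was 1.81 ± 0.37 higher in skin and tail than in the internal organs (adjusted p = 0.011) and 1.44 ± 0.21 higher on the 13 arrays (adjusted p = 0.00063). Disp1, which exports the ligand, was lower in skin and tail on the 13 arrays (log2 -1.09 ± 0.12, adjusted p = 0.00022). Hhat, the acyltransferase of the ligands, had organ means of 1.68 in heart to 2.79 in tail on the 13 arrays.

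Among co-receptors, Gas1 was 2.69, 2.39 and 2.82 in tail, above all other arrays, and tail exceeded the other organs by 2.83 ± 0.35 (adjusted p = 0.00020). Gpc3, a glypican that competes with Ptch1 for ligand, was 1.5 and 2.40 in lung and 2.90 ± 0.44 higher there (adjusted p = 0.011; 0.381% of genes called higher), and lower in gonad (log2 -1.84 ± 0.37, adjusted p = 0.015). Lrp2, an endocytic receptor that also binds hedgehog, was lower in heart (-4.51 ± 0.76, adjusted p = 0.0030), and on the 13 arrays, where no heart array was well above background, it was at least 13.7-fold lower. Cdon had its highest organ mean in tail, 2.86 on the 13 arrays, and its lowest in gonad, 1.57.

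Of the relays, 18 of 24 were called lower and 4 higher in kidney on 18 arrays, where both kidney arrays had raised dark controls and 41.4% of all genes were called lower and 35.1% higher. Among those lower were Arrb1, an arrestin (log2 -2.90 ± 0.52), Evc2, of the ciliary Smo complex (-2.61 ± 0.47), Csnk1a1, a Gli and Smo kinase (-2.99 ± 0.50) and Arl13b, a ciliary GTPase (-2.50 ± 0.47), with adjusted p of 0.0013 to 0.0017. On the 13 arrays 11 passed the F test over organs, and 1 of the 24, Arrb2, lower in gonad, was called when an organ, or skin and tail, was compared with the rest. Arrb1, Csnk1a1 and Arl13b no longer passed the F test there (adjusted p = 0.19, 0.74 and 0.11).

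Among reported targets, Mycn, a growth-promoting factor, was 1.46 and 1.45 in heart on the 13 arrays and -1.05 on the raised heart array. Over 18 arrays it was 2.84 ± 0.54 higher in heart than in the mean of the other organs, tail included (adjusted p = 0.0072; 1.36% of genes called higher). It was well above background on none of the 3 tail arrays and at least 11.3-fold lower there (adjusted p = 5.5e-05). Bmp4, a signal of the TGF-beta family, was higher in gonad (2.56 ± 0.52, adjusted p = 0.015) and liver (2.23 ± 0.52, adjusted p = 0.047; on the 13 arrays 1.54, adjusted p = 0.053) and lower in skin (log2 -3.10 ± 0.61, adjusted p = 0.024; 0.639% of genes called lower). Sfrp1, a secreted Wnt inhibitor, was higher in heart (2.15 ± 0.45, adjusted p = 0.012), and Foxf1, a forkhead factor of visceral mesenchyme, was lower in gonad (-2.52 ± 0.57, adjusted p = 0.029), where only gonad replicate 3 was well above background. In skin and tail 2 of the 17 targets were called higher and 5 lower on the 13 arrays, where 24.7% of all genes were called higher and 3.95% lower. Their median difference was -0.69, against 0.13 for all genes.

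**Figure D4:**
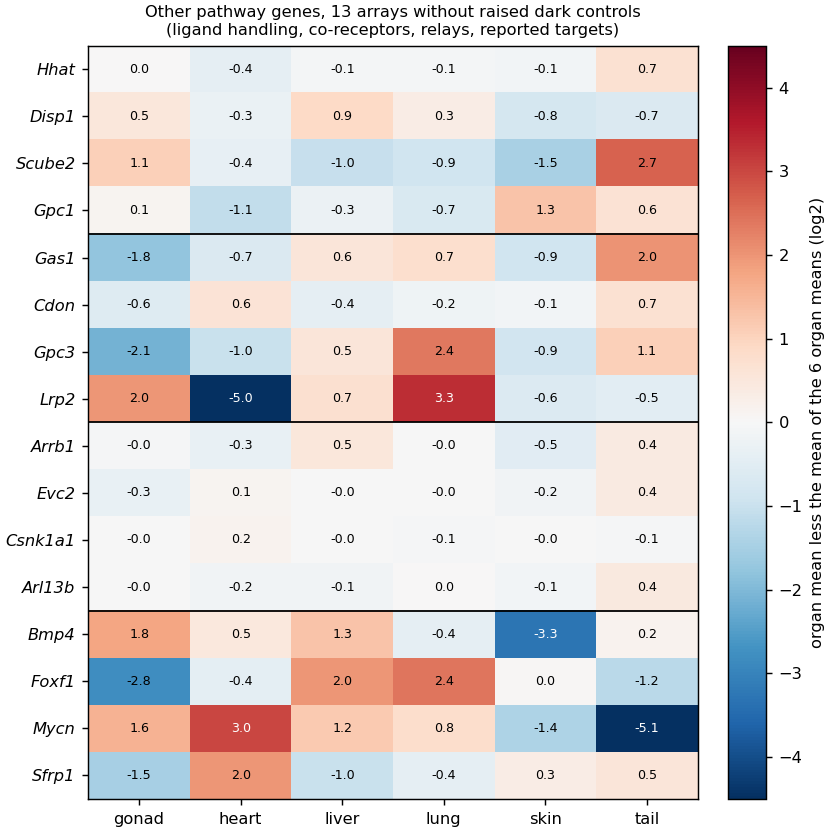
Organ means of the 16 other pathway genes on the 13 arrays without raised dark controls, each less the mean of its 6 organ means (log2), with red for higher and blue for lower and lines between ligand handling, co-receptors, relays and reported targets. The 4 relays lie within 0.52 of their mean. Above their mean stand Scube2 and Gas1 in tail, Lrp2 and Gpc3 in lung and Mycn in heart, and below it Mycn in tail (-5.14), Lrp2 in heart (-4.99), Bmp4 in skin (-3.28) and Foxf1 in gonad.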

How the data were processed

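RNA of cultured fibroblasts from 7 organs was labelled with Cy3 and hybridised to 1-colour Agilent arrays of 62976 spots, read with Agilent Feature Extraction 11.0.1.1, per the submitters' processing notes and the file headers. The deposited processed signal is a background-subtracted intensity in scanner units, not normalized between arrays, and the deposited raw and background signals are intensity medians. The deposited flags (0 or 1) mark outlier spots and spots well above background. The deposited value table equals the raw medians on all 18 arrays and served as an alternative.

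Each array's 75th percentile was subtracted from the log2 processed signals, outlier-flagged spots were left out and spots of a probe averaged. A gene is its brightest complete probe (a probe with missing spots was used where none was complete), and genes not well above background on at least 2 arrays were left out (20191 tested). Probes were named by RefSeq accession (27235 of 55681). Promoter sequences are RefSeq's. The model, 1 mean for each of 7 organs with 11 residual degrees of freedom, was fitted with limma 3.58.1 (R 4.3.3). Each comparison's p-values were corrected over all genes by Benjamini-Hochberg, and a call needs an adjusted p under 0.05 and a log2 difference of at least 1. Where a probe was not well above background on any array of an organ, a bound uses the lowest signal well above background on each array, and the number of arrays limits the precision. Tested on simulated data for skin against the other organs over 20191 genes, the fit recovered 80 of 200 changed genes. The members and gene lists were chosen with earlier results of these data known. Named genes are the 9 members, up to 4 genes per list that passed the F test on 18 arrays with the widest range of organ means, and the 4 genes with the highest Pearson r to each member well above background on at least 9 arrays. The values with normexp (offset 50) on the 13 arrays were chosen after seeing the data. Some genes of the lists are not reported here by name.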

Additional observations from a re-analysis of the deposited data

How the results depend on the processing

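Of 51 called differences of the 9 genes on 18 arrays, 9 kept their direction and call under every alternative that gave a value, among them Hhip in skin and tail against the internal organs (2.64 to 5.83 over 31 alternatives, adjusted p 3.4e-07 to 0.0076) and Dhh in gonad (3.63 to 4.78 over 32, adjusted p 2.7e-05 to 0.0087). Of the 9 genes, 3 passed the F test on 18 arrays, 5 with the value table of 19 samples, 7 without raised dark controls and 7 with normexp and quantile normalization without them. Of all genes, 32.4% passed on 18 arrays, 53% without raised dark controls and 47.9% with normexp without them. Differences called in organs against the others were 13, and 8 among genes well above background on all arrays, a setting with fewer genes. Of all such differences 13.3% were called on 18 arrays. Differences called in skin and tail were 2, with 1 under quantile normalization, 1 among genes well above background on all arrays and 4 without raised dark controls. Of all genes, 2.5% were called higher and 1.66% lower there on 18 arrays, and 24.7% and 3.95% without raised dark controls. Differences called over organ pairs were 36, with 46 without raised dark controls and 22 with normexp without them. Of all pair differences 17.2% were called on 18 arrays and 17% without raised dark controls. In single pairs of the 13 arrays 0.244 to 25.9% of all genes were called in a given direction. With normexp that share was 0.465 to 6.21%, so fewer calls were made among all genes too. Other pathway genes passing were 32.

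Leaving out 1 array gave 2 to 8 genes passing the F test, 5 to 17 calls over organs, 1 to 2 in skin and tail, 13 to 57 over pairs and 13 to 53 other pathway genes. Without heart replicate 1, 8 genes passed, 57 pairs were called and 53 other genes passed. Without gonad replicate 3, 7 genes passed. Without kidney replicate 1 the counts were 5 over organs, 13 over pairs and 13 other genes, and without kidney replicate 2 they were 8 over organs and 17 other genes. Without skin replicate 2, tail replicate 1 or tail replicate 3, 8 calls over organs were left, without tail replicate 1 also 21 other genes, and without any single skin or tail array 1 call in skin and tail. Organs left with 1 array are assumed to vary like the others. The share of all genes called with 1 array left out is not given. These counts therefore do not show a change particular to the hedgehog genes. The 13-array values were not recomputed with further arrays left out.

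Under quantile normalization 2 differences of Shh reversed, gonad against kidney at 0.15 and kidney against lung at -0.063, and the cause was not tested. Replicate numbers share no source in the labels, and the correlation of same-numbered samples' deviations was -0.85 to 0.78 (median -0.04) and over 0.1 in 13 of 46 pairs. A replicate block gave 3, 10, 2 and 34 for the F test, organs, skin and tail and pairs, and 23 other genes. Among the organ comparisons it ended the calls of Ihh in kidney (3.11, adjusted p = 0.055), Hhip in skin (4.30, adjusted p = 0.065) and in liver (-3.28, adjusted p = 0.068), while a slide block left 11 calls over organs. The median of all genes in skin and tail against the internal organs was 0.45 higher on 18 arrays, 0.13 on the 13 and 0.03 with normexp on the 13.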

Other observations

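Lung replicate 2 was used from the value table alone, which holds raw signals. It was in the alternative with the value table of 19 samples and in no other comparison. Its raw Hhip signal was 74.5 units, against 117.5 and 75 in lung replicates 1 and 3 and a median of 59.5 over the 13 arrays without raised dark controls. Its raw Dhh signal was 100 units, against 377.0 and 113.0 in the other two and a median of 166.0, so that Dhh in lung replicate 1 was the highest of the 3 lung samples. Gli3 read 2139, against 2477 and 2217, and Smo 16426, against 22220 and 19830. Gli1 read 160.0, against 155.0 and 140.0. These raw signals include the background of each array.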
